A study of Mus musculus with 9 samples.

Results

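Rapamycin was compared with its solvent DMSO in mouse cytotoxic T lymphocytes (CTL) on day 6 of culture, using 6 of the 9 arrays of the study: 3 DMSO cultures and 3 rapamycin cultures, described across all genes that the array measured with a probe set of a single gene symbol. All cells came from wild type mice of the P14-TCR strain, whose transgenic T cell receptor recognises the gp33-41 peptide of lymphocytic choriomeningitis virus. CD8 T cells of a spleen were activated with that peptide and interleukins 2 and 12 for 48 h and then kept for 96 h more, the last 48 h with DMSO or with 20 nM rapamycin. Each replicate number stands for 1 spleen, so that the DMSO and the rapamycin culture of a number were sister cultures of the same animal's cells. The other 3 arrays, sister cultures with 1 uM KU-0063794, an inhibitor of the mTOR kinase, entered the model that estimated the spread. The sources used here do not give the age of the mice, and every culture carried the same receptor transgene, so the comparison says nothing of T cells with other receptors.

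Rapamycin binds the protein FKBP12, and the pair of them blocks mTOR complex 1 (mTORC1), a kinase complex that senses amino acids, growth factors and cytokines. In activated T cells mTORC1 is known to promote protein synthesis, glycolysis, sterol and nucleotide synthesis and the activity of transcription factors such as ATF4, SREBP and HIF1, and in CTL it is known to sustain perforin and other effector genes. Prolonged rapamycin treatment can also lower mTOR complex 2 in some cells. The question addressed here was which transcripts of CTL that were already established differed after 48 h of rapamycin.

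The arrays were alike in their overall signals. Their medians lay between 0.47 and 0.53 on the log2 scale, and between 23.2% and 23.8% of the probe sets of each array were above the background level of 2.27 log2, the 95th percentile of 36 genes restricted to other tissues. Of 12 CD8 T cell marker genes, 11 of 12 were above that level in DMSO and 12 of 12 in rapamycin cultures, with summed signals of 77.3 to 80.2 and 77.4 to 80.6 log2. The counts for other cells were the same in both groups: 0 of 7 CD4 T cell, 1 of 9 B cell, 2 of 4 NK cell, 0 of 14 myeloid and 0 of 8 erythroid, platelet or stromal markers. Summed signals were 4.15 to 4.89 in DMSO and 3.90 to 4.31 in rapamycin cultures for CD4 T cells and 11.4 to 14.7 and 10.3 to 14.1 for B cells. They were 11.03 to 13.3 and 11.6 to 14.2 for NK cells, 6.31 to 7.48 and 6.00 to 6.96 for myeloid cells, and 4.94 to 5.11 and 3.54 to 4.73 for the erythroid, platelet and stromal list. The genes Cd4, Cd79a, Ncr1, Lyz2 and Hba-a1 were all below background in both groups. The B cell marker above it was Ighm, at 6.96, 9.28 and 7.85 log2 in DMSO and 7.24, 9.30 and 8.39 with rapamycin. Cd79b had means below background, 1.80 in DMSO and 1.48 in rapamycin cultures, but read 2.36 in DMSO spleen 2. Which cells gave the Ighm signal was not tested. The NK markers above background were Eomes and Klrk1, which CD8 T cells also express. The actin control's 3′ minus 5′ signal, a sign of RNA quality, was 0.49 to 0.65 log2 in DMSO and 0.62 to 0.72 in rapamycin cultures, higher with rapamycin in each spleen. The Gapdh control's was -0.07, 0.04 and -0.21 in DMSO and -0.16, -0.03 and -0.25 in rapamycin cultures, lower in each spleen. A B1 repeat control read 8.65, 7.98 and 7.96 log2 in DMSO and 7.52, 7.11 and 6.75 in rapamycin cultures. The part of RNA quality in the results was not tested. In RNA of whole cultures, fewer cells that express a gene and less of its RNA per cell cannot be told apart.

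With rapamycin 828 genes were higher and 733 lower than with DMSO at the 0.05 threshold of the adjusted p in limma, fitted with the spleen as a block and adjusted over all 13278 genes tested. Such genes are called here. They were 11.8% of the genes tested, 6.24% called higher and 5.52% called lower. Of the 6756 genes with a group mean above the background level, 10.9% were called higher and 9.07% lower. The counts of gene groups below are to be read against both pairs of shares. The second pair is the nearer one for lists of mostly expressed genes. Most changes were modest: the median log2 fold change was 0.48 among the genes called higher and -0.47 among those called lower, and -0.00 over all genes tested. Of the genes called, 93 differed by at least 2-fold, 0.700% of those tested. Large changes were mostly decreases, with 22 genes at least 2-fold higher and 71 at least 2-fold lower; 6 genes fell at least 4-fold and none rose that much. All 1561 genes called had the same sign in 3 of 3 spleens, as did 41.0% of all genes tested, and for 1228 of them the DMSO and rapamycin values did not overlap, as for 19.1% of all genes tested. Fitted without the block, 590 genes were called, 352 higher and 238 lower, 4.44% of those tested, 2.65% higher and 1.79% lower; a list count above 1 is given below without the block too where it differs by more than 1.5 times.

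The number of calls rested on having all the spleens. Leaving out every array of spleen 1 left 6 genes called, among them Scd1, Anxa1, Tmem40 and Igfbp4, leaving out spleen 3 left 18 and leaving out spleen 2 left 411. Each of these fits had fewer arrays than the full fit, and so less power, but the same number as each other. Why their counts differed was not tested. Leaving out 1 array gave 687, 1102 and 847 genes for DMSO replicates 1, 2 and 3 and 592, 804 and 741 genes for rapamycin replicates 1, 2 and 3. The fit of the 6 DMSO and rapamycin arrays alone called 745 genes. At 2-fold or more the count was 61 without DMSO replicate 1, 6 without spleen 1 and 18 without spleen 3, against 93 in all. Within each pair of spleens the differences correlated across the 6600 genes above background with Pearson's r of 0.70 to 0.76. Over all 13278 genes tested r was 0.52 to 0.59. These values are a description, since genes are not independent replicates, and they do not show that sizes were equal between spleens.

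**Figure D1:**
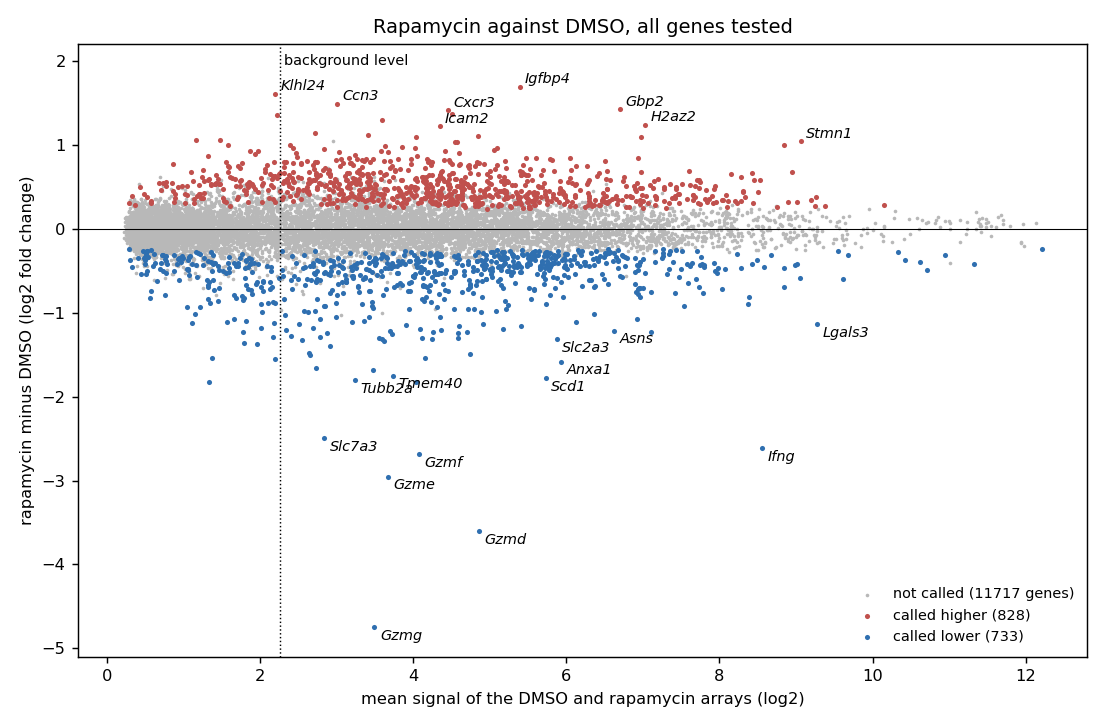
Rapamycin minus DMSO (log2 fold change, y axis) against the mean log2 signal of the 6 arrays (x axis) for the 13278 genes tested; red points were called higher (828), blue points called lower (733) and grey points not called, and the dotted line marks the background level. The largest changes are decreases, led by Gzmg at -4.75, and the largest increase is Igfbp4 at 1.69.

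The killing machinery was affected unevenly. Of 10 tested granzyme and perforin genes 6 fell, none rose, and the list median was -0.95. The granzymes D, E, F and G, serine proteases of the cytotoxic granule whose genes lie next to each other, fell together. Probe sets of such related genes may share sequence, and cross-hybridisation was not tested, so these genes may not be separate readings. Gzme, for example, read 6.55, 4.28 and 4.61 log2 in the DMSO cultures of spleens 1 to 3 and 3.15, 1.98 and 1.45 with rapamycin (log2 fold change -2.96, SE 0.23, adjusted p = 0.00124 in limma). Every DMSO value lay above every rapamycin value, although spleen 1 was highest in both groups. Prf1, which encodes the pore-forming protein perforin, read 6.79, 4.88 and 4.81 in DMSO and 5.47, 3.00 and 3.54 in rapamycin cultures. It fell by 1.49 on the log2 scale (SE 0.19, adjusted p = 0.00393, and 0.334 without the block), by 1.32, 1.88 and 1.26 in spleens 1, 2 and 3, while the rapamycin value of spleen 1 stayed above the DMSO values of spleens 2 and 3. The granzymes of highest signal moved little. Gzma read 11.56, 10.85 and 11.26 in DMSO and 10.97, 10.66 and 10.80 in rapamycin cultures (log2 fold change -0.41, SE 0.13, adjusted p = 0.0782), and Gzmc differed by -0.18 log2 (adjusted p = 0.396). Gzmb fell by 0.25 on the log2 scale (adjusted p = 0.0434), at signals near the top of the arrays' range, and lost its call without any 1 of the 9 arrays.

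Granule exocytosis genes gave 3 higher and 2 lower of 24, with a median of 0.00; 2 rose and none fell without the block. The 3 became 1 without DMSO replicate 2 or 3 or rapamycin replicate 1 or 2 and 0 without rapamycin replicate 3, and the 2 became 4 without DMSO replicate 2. The members that fell were Serpinb9 and Serpinb6b, which encode protease inhibitors of the family that shields the killer cell from its own granzymes. Serpinb9 read 6.59, 4.47 and 5.66 log2 in DMSO and 5.61, 3.57 and 4.61 in rapamycin cultures. Its log2 fold change was -0.98 (SE 0.10, adjusted p = 0.00217 in limma, and 0.483 without the block), and Serpinb6b fell by 1.05 (adjusted p = 0.00572, and 0.617 without the block). In both genes the spleens differed more from each other than the treatments did. Serpinb9 fell by 0.99, 0.90 and 1.06 in spleens 1, 2 and 3, and Serpinb6b by 1.25, 0.60 and 1.31. Their neighbour Serpinb1a, an inhibitor of neutrophil-type proteases, fell by 1.18 as well (adjusted p = 0.0107), from a mean near the background level. Ctsw, a cathepsin of cytotoxic cells, rose by 0.41 (adjusted p = 0.0132, and 0.384 without the block) and Lamp1, a granule membrane protein, by 0.48 (adjusted p = 0.014). Of the 9 fits without 1 array, the calls held in 6 for Serpinb1a and Lamp1 and in 5 for Ctsw. The death ligand gene Fasl had a difference of 0.38 log2 and was not called (adjusted p = 0.0877).

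Of 20 effector cytokine genes 6 fell and 1 rose, with a median of -0.11; without the block 2 fell. The count of 6 was 3 without DMSO replicate 1 or 3 or rapamycin replicate 2 or 3, and 2 without rapamycin replicate 1. Ifng, the interferon gamma gene, fell most, from 10.54, 9.62 and 9.44 log2 in DMSO to 7.63, 7.57 and 6.55 in rapamycin cultures (log2 fold change -2.62, SE 0.17, adjusted p = 0.000819 in limma). Every spleen fell by more than 2 log2, and the groups were far apart. Tnf, which encodes tumour necrosis factor, moved much less, from 4.35, 3.91 and 4.41 to 3.94, 3.56 and 4.11 (log2 fold change -0.35, SE 0.07, adjusted p = 0.0191, and 0.334 without the block). Its groups overlapped, and its call held in 4 of the 9 fits without 1 array. Lta, a related cytokine, fell by 0.76, and Il10 and Il24 by 0.46 and 0.43 (adjusted p = 0.334 and 0.463 without the block). Lif, a cytokine of the interleukin 6 family, rose by 0.83 (adjusted p = 0.039, and 0.266 without the block). The calls held in 1 of the 9 fits without 1 array for Il10 and Il24 and in 2 for Lif. Among 6 chemokine genes Ccl4 fell and Ccl5 rose, by 1.31 and 0.76, with calls that held in 4 and 5 of those fits.

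**Figure D2:**
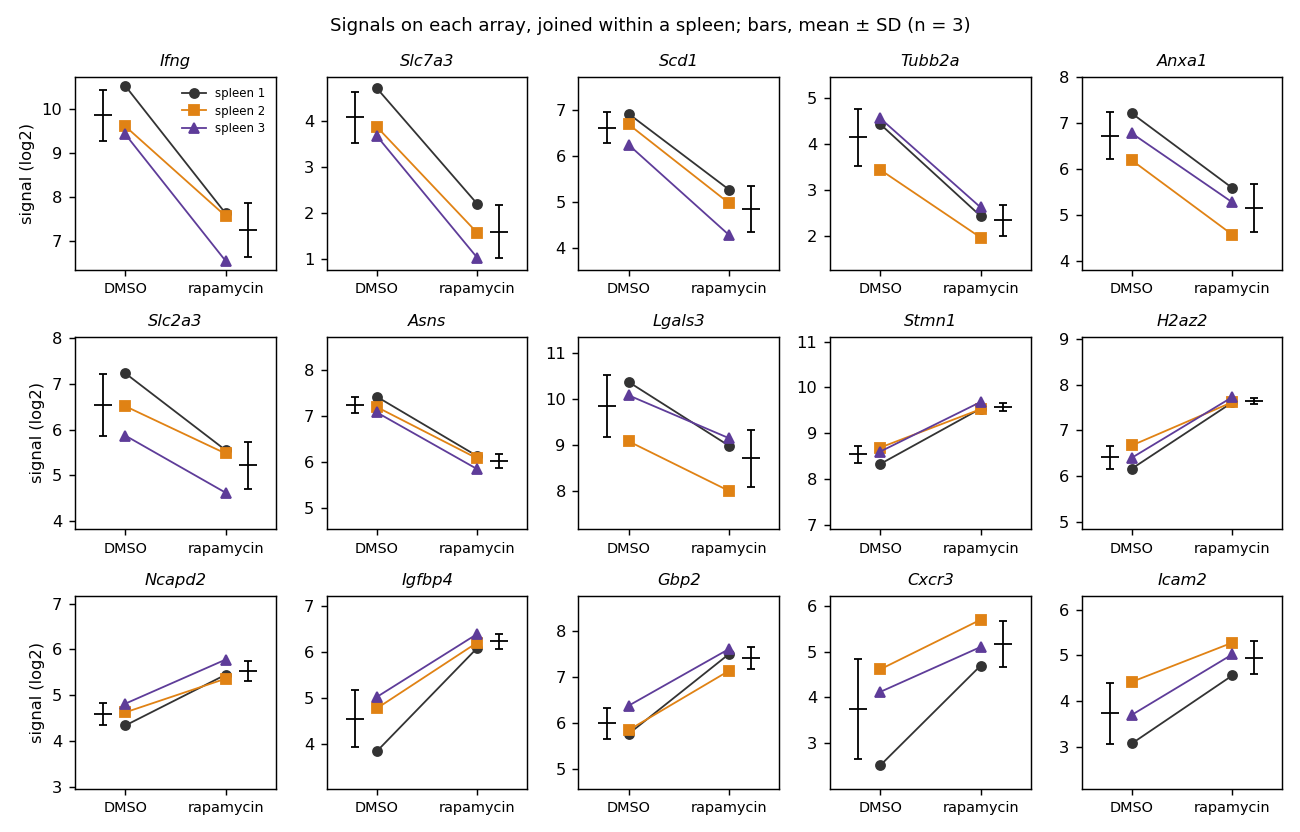
Log2 signals (y axis) of 15 genes in the DMSO and rapamycin cultures; each line joins the cultures of 1 spleen, and the bars beside the points give the mean and SD of each group (n = 3). The lines of a gene run in one direction, also where spleens start from different levels, as for Cxcr3, which reads 2.52 in spleen 1 and 4.61 in spleen 2 with DMSO.

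Receptors that guide T cells through tissues moved in both directions, with 4 higher and 4 lower of 19, and 1 and 1 without the block. The count higher was 2 without rapamycin replicate 1 or 3; the count lower was 1 without DMSO replicate 1 or 3 or rapamycin replicate 1 or 3 and 2 without rapamycin replicate 2. Cxcr3, the receptor for chemokines that interferon gamma induces, read 2.52, 4.61 and 4.12 log2 in DMSO and 4.69, 5.70 and 5.10 in rapamycin cultures. It rose by 1.41 (SE 0.27, adjusted p = 0.0154 in limma, and 0.145 without the block), by 2.18 in spleen 1 and by 1.08 and 0.98 in the others, and its call held in 6 of the 9 fits without 1 array. Ccr7, which directs cells to lymph nodes, rose from 2.61, 3.54 and 3.21 to 3.74, 4.02 and 4.37 (adjusted p = 0.0776 without the block). Ptger4, a prostaglandin receptor, rose by 0.68 (adjusted p = 0.00326), whereas Gpr183, an oxysterol receptor, fell from 5.74, 5.47 and 5.67 to 4.73, 4.68 and 4.88 (adjusted p = 0.00314). The groups of Gpr183 were apart by more than any spread between spleens. Klf2 and S1pr1, a factor and a receptor of egress from lymphoid tissue, were below background in both groups and not called (log2 fold changes -0.12 and -0.13, adjusted p = 0.665 and 0.46).

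Among adhesion genes 5 of 30 rose and 4 fell; without the block none rose and 1 fell. The 5 became 3 without DMSO replicate 3 or rapamycin replicate 1, and the 4 became 2 without DMSO replicate 1 or 3 or rapamycin replicate 1 or 3. Icam2, a ligand of the integrin LFA-1, read 3.08, 4.43 and 3.71 log2 in DMSO and 4.56, 5.28 and 5.02 in rapamycin cultures (log2 fold change 1.22, SE 0.13, adjusted p = 0.0026 in limma, and 0.0698 without the block). Cd96, an adhesion receptor of T and NK cells, rose by 0.84 (adjusted p = 0.179 without the block), and Itgae, the CD103 integrin chain of tissue-resident T cells, by 0.79 (adjusted p = 0.0186, and 0.463 without the block). Itgav fell by 0.69. The costimulatory receptor gene Cd27, high in naive and memory T cells, rose from 2.01, 1.81 and 1.84 to 3.33, 2.59 and 2.75 (log2 fold change 1.00, SE 0.11, adjusted p = 0.00275), starting below the background level. Tnfrsf9 and Tnfrsf18, receptors that activation raises, fell by 0.54 each (adjusted p = 0.0129 and 0.00552, and 0.759 and 0.155 without the block). The calls of Itgae and Tnfrsf9 held in 7 and 6 of the 9 fits without 1 array.

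Of 18 inhibitory receptor genes 4 fell and 2 rose, and 2 fell and none rose without the block. The count of 4 was 1 without DMSO replicate 1, DMSO replicate 3, rapamycin replicate 1 or rapamycin replicate 2 and 2 without rapamycin replicate 3, and the count of 2 was 1 without DMSO replicate 1 or 3, rapamycin replicate 1 or 3 or KU-0063794 replicate 1. Havcr2, which encodes the exhaustion marker TIM-3, read 5.52, 3.45 and 3.93 log2 in DMSO and 3.79, 2.44 and 2.63 in rapamycin cultures (log2 fold change -1.34, SE 0.28, adjusted p = 0.0208 in limma, and 0.194 without the block). Its call held in 4 of the 9 fits without 1 array. Pdcd1, the PD-1 gene, read 3.44, 3.29 and 3.17 and then 2.50, 2.06 and 2.59 (adjusted p = 0.00462), and its call held in all 9. Cd274, the PD-L1 gene, rose by 0.57 (adjusted p = 0.217 without the block), while Ctla4 (0.17, adjusted p = 0.321) and Lag3 (0.42, adjusted p = 0.237) were not called. The lectin-like receptor genes Klrk1 (0.48), Klrd1 (0.53) and Clec2d (0.54) rose, 3 of 9 with none lower, and none of the 3 was called without the block (adjusted p = 0.201, 0.695 and 0.0554). The call of Klrd1 held in 1 of the 9 fits without 1 array.

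Transcription factor genes of effector and memory cells were called lower more often than higher, 9 against 2 of 50. Without the block, however, 0 fell and 1 rose. The list median was 0.04, and 28 of the 50 had a fold change above 0. Leaving out DMSO replicate 1 or 3 turned the 9 into 4 or 5, and leaving out rapamycin replicate 1 or 3 turned it into 3; the 2 became 0 without rapamycin replicate 3 and 1 in each other fit without 1 array, except that without DMSO replicate 3. Id2, which supports effector differentiation, read 9.42, 8.35 and 8.69 log2 in DMSO and 8.48, 7.54 and 7.74 in rapamycin cultures (log2 fold change -0.90, SE 0.08, adjusted p = 0.00189 in limma, and 0.178 without the block). The drop was 0.94, 0.81 and 0.94 in the 3 spleens, yet the groups overlapped, because spleen 1 was higher throughout. Fosl2, an AP-1 factor, fell by 1.31 (adjusted p = 0.00301, and 0.328 without the block), Hopx by 0.71, Nfil3 by 0.61 and Bhlhe40 by 0.57 (adjusted p = 0.286, 0.194 and 0.248 without the block). The master regulators did not follow: Tbx21 differed by 0.08 log2 (adjusted p = 0.674), Eomes 0.24 (0.176), Prdm1 0.06 (0.819), Irf4 0.13 (0.595) and Batf -0.23 (0.112). On the memory side Lef1 rose by 0.30 (adjusted p = 0.0397, and 0.167 without the block), and Bach2 read 2.91, 1.53 and 2.87 against 4.02, 3.36 and 3.06 and was not called (log2 fold change 1.04, SE 0.31, adjusted p = 0.0698). Myc, the growth factor response gene, rose by 0.48 (adjusted p = 0.00881, and 0.0598 without the block). Of the 9 fits without 1 array, the call held in 0 for Lef1, 6 for Bhlhe40, 7 for Nfil3 and 8 for Myc.

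Signalling genes of the T cell receptor were called in both directions, 7 higher and 9 lower of 53, with a median of -0.06. Without the block 0 were higher and 1 lower. The shares were 13.2% higher and 17.0% lower, against 10.9% and 9.07% of the genes with a group mean above background. The 7 became 2 without DMSO replicate 2, 1 without DMSO replicate 1 or 3 or rapamycin replicate 1 or 2 and 0 without rapamycin replicate 3, and the 9 became 5 and 4 without DMSO replicates 1 and 3 and 2 without any 1 rapamycin array. The phosphatase genes Dusp2 (-0.95) and Dusp5 (-0.66) and the phosphatase-like Ubash3b (-0.90), which restrain signalling, were among those that fell, as was the adaptor gene Lcp2 (-0.50); the 3 were not called without the block (adjusted p = 0.197, 0.258 and 0.155), whereas Lcp2 was. Cd8b1, a chain of the CD8 co-receptor, rose by 0.39 (adjusted p = 0.0215, and 0.343 without the block), while Cd8a (0.01, adjusted p = 0.947) and Cd3e (0.07, adjusted p = 0.715) were not called. Of the 9 fits without 1 array, the call held in 6 for Dusp2 and in 5 for Ubash3b and Cd8b1.

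Genes of the mTOR pathway itself were called in both directions, 7.59% higher and 12.7% lower. Of all genes tested 6.24% and 5.52% were, and of those with a group mean above background 10.9% and 9.07%. Of 79 tested members 6 rose and 10 fell, with a median of -0.01; the 6 became 3 without DMSO replicate 1, rapamycin replicate 3 or KU-0063794 replicate 1 or 3 and 2 without rapamycin replicate 1. The 10 became 6 without DMSO replicate 1 or rapamycin replicate 1 or 3 and 5 without rapamycin replicate 2, and without the block 3 rose and 4 fell. Ddit4, which encodes the stress-induced mTORC1 inhibitor REDD1, read 7.48, 7.42 and 7.50 log2 in DMSO and 6.18, 6.71 and 6.27 in rapamycin cultures (log2 fold change -1.08, SE 0.12, adjusted p = 0.00284 in limma). The sestrin genes, whose products also restrain mTORC1, were lower: Sesn3, Sesn1 and Sesn2 fell by 0.73, 0.57 and 0.51, and none of them was called without the block (adjusted p = 0.118, 0.068 and 0.106). Eif4ebp1, the mTORC1 substrate that blocks cap-dependent translation, fell from 7.16, 6.91 and 6.53 to 6.05, 6.05 and 5.48 (log2 fold change -1.01, SE 0.08, adjusted p = 0.00135). Pdcd4, another brake on translation initiation, rose from 5.36, 5.16 and 5.60 to 6.31, 6.02 and 6.26 (log2 fold change 0.82, adjusted p = 0.00209), and Rps6 rose by 0.52. Rhebl1, a homologue of the mTORC1 activator Rheb, rose by 0.80 (adjusted p = 0.00848). The calls of Sesn3, Sesn1, Sesn2 and Rhebl1 held in 5, 7, 8 and 8 of the 9 fits without 1 array. The kinase gene Mtor (0.06, adjusted p = 0.654), Rptor (-0.12, 0.557), Rictor (0.33, 0.0928) and the rapamycin receptor gene Fkbp1a (-0.27, 0.0599) were not called.

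Targets of ATF4, the transcription factor of amino acid shortage, fell as a group: 28 of 39 fell, none rose, 38 of 39 had a fold change below 0 and the median was -0.47, or -0.56, -0.41 and -0.50 in spleens 1, 2 and 3. Without the block 16 fell. To show what these genes share that the comparison did not use, their promoters were searched for the C/EBP-ATF response element, TGATGNAA on either strand, in the RefSeq windows of 250 bases before to 50 bases after the start (build GRCm38.p6). The element was in 12 of 34 tested members with a promoter, in 10 of the 24 called (41.7%), in 2.82% of all 10619 genes tested with a promoter, in 5.75% of the genes called lower and in 3.16% of those called higher. The list was drawn up from known ATF4 targets, so its high share says nothing of these cultures. The windows below, all before the start, are from called members of the list with large changes that hold the element there. Capitals mark it, and Vldlr lies outside the naming rule and was chosen after its values were seen. The windows stand at chr7:126625547-126625606 on the minus strand (Nupr1), chr6:7693210-7693269 minus (Asns), chr19:27216794-27216853 plus (Vldlr) and chr2:119351023-119351082 plus (Chac1).
Nupr1: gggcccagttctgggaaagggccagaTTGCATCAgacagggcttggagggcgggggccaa
Asns: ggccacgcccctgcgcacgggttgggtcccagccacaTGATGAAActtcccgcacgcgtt
Vldlr: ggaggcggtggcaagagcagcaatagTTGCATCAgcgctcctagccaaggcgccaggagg
Chac1: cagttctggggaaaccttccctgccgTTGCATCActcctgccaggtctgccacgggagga
In Nupr1, Vldlr and Chac1 the letters TTGCATCA are the element read from the opposite strand, and in Asns TGATGAAA runs with the gene.

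Asns, which makes asparagine, read 7.42, 7.20 and 7.08 log2 in DMSO and 6.13, 6.08 and 5.84 in rapamycin cultures (log2 fold change -1.22, SE 0.07, adjusted p = 0.000314 in limma). The spread between spleens was small beside the drop. Nupr1, a stress-induced chromatin protein, read 3.26, 1.81 and 2.90 and then 1.51, 1.09 and 1.25, at or below background with rapamycin (adjusted p = 0.00548, and 0.0508 without the block). Gpt2, the mitochondrial alanine transaminase, read 3.19, 2.79 and 2.48 and then 1.84, 1.82 and 0.94 (log2 fold change -1.29, adjusted p = 0.00284). Trib3 and Atf5, regulators in the same stress response, fell by 1.20 and 0.99, and Atf4 itself fell by 0.70. Chac1, which breaks down glutathione, fell by 0.84 (adjusted p = 0.0247, and 0.16 without the block), with its call kept in 5 of the 9 fits without 1 array.

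Supply of amino acids and their charging onto tRNA followed the same direction. Of 26 amino acid transporter genes 7 fell and 1 rose, with a median of -0.06, and 4 fell without the block. Slc7a3, which carries arginine and lysine, led with 4.72, 3.87 and 3.67 log2 in DMSO and 2.19, 1.56 and 1.02 in rapamycin cultures (log2 fold change -2.49, SE 0.15, adjusted p = 0.000596 in limma), so that its rapamycin values were below background. Slc7a5, the leucine transporter subunit, and Slc1a5, the glutamine transporter, fell by 0.60 and 0.52 (adjusted p = 0.056 and 0.0165 without the block). Of 23 cytosolic aminoacyl-tRNA synthetase and related genes 11 fell, none rose, and the median was -0.18; the count was 7 without DMSO replicate 1 or 3 or rapamycin replicate 2, 6 without rapamycin replicate 1 or 3 and 5 without the block. Nars and Sars, the asparagine and serine enzymes, fell by 0.71 and 0.61. Of 15 mitochondrial synthetase genes 0 were called in limma, 3 had an unadjusted p under 0.05, and their median was 0.05; the difference between the lists was not tested. Among amino acid enzymes 8 of 31 fell and 3 rose, the 3 becoming 1 without DMSO replicate 1 or rapamycin replicate 1 or 3. Bcat1, the cytosolic branched-chain transaminase, fell from 4.67, 4.59 and 4.49 to 3.69, 3.91 and 3.55, while Bckdha, of the mitochondrial branched-chain dehydrogenase, rose from 2.38, 2.09 and 2.19 to 3.05, 2.82 and 3.20. Neither gene's groups overlapped. Glul and Glud1 of glutamine and glutamate metabolism rose by 0.57 and 0.29, though 1 of 2 Glul probe sets went the other way and Glud1 lost its call without the block (adjusted p = 0.105); their calls held in 6 and 2 of the 9 fits without 1 array. Smox, the spermine oxidase gene, read 5.10, 4.66 and 5.10 and then 2.98, 3.27 and 3.13, and Sat1, another gene of polyamine breakdown, fell by 0.66 with a call that held in 6 of the 9. Odc1, the rate-limiting enzyme of polyamine synthesis, differed by -0.03 log2 (adjusted p = 0.818).

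**Figure D3:**
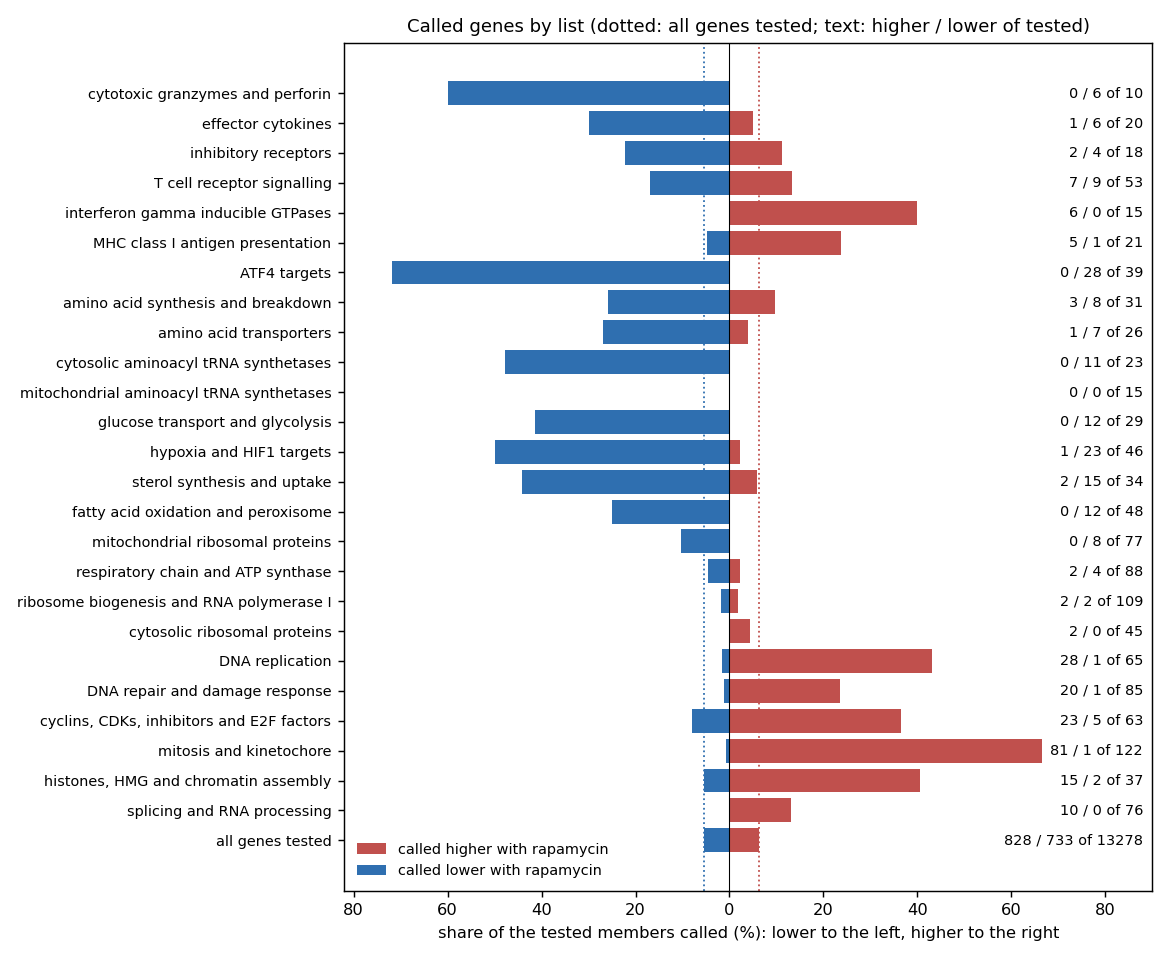
Share of the tested members of each list that was called higher (red, to the right) or lower (blue, to the left) with rapamycin, in percent; the numbers give higher and lower of tested, and the dotted lines mark 6.24% and 5.52% of all genes tested. ATF4 targets reach the largest share called lower, 28 of 39, and mitosis genes the largest share called higher, 81 of 122, among the lists drawn.

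Glycolysis genes fell, 12 of 29 with none higher, a median of -0.24 and 27 of 29 below 0; 4 fell without the block. The glucose transporter gene Slc2a3 changed most, from 7.23, 6.51 and 5.87 log2 in DMSO to 5.55, 5.48 and 4.62 in rapamycin cultures (log2 fold change -1.32, SE 0.17, adjusted p = 0.0043 in limma, and 0.0728 without the block). The drop was 1.68, 1.03 and 1.25 in the 3 spleens. Aldoc, an aldolase, fell from 7.09, 6.62 and 6.36 to 5.45, 5.60 and 5.67 (adjusted p = 0.00709). Hk2, the inducible hexokinase, and Slc2a1, the GLUT1 transporter, each fell by 0.71 (adjusted p = 0.0522 and 0.138 without the block), and Hk2 kept its call in 7 of the 9 fits without 1 array. At the end of the pathway Pkm and Ldha fell by 0.34 and 0.39 (adjusted p = 0.0429 and 0.00912, and 0.234 and 0.0806 without the block), with calls that held in 1 and 8 of the 9. Pck2, which makes phosphoenolpyruvate in mitochondria, fell from 5.48, 5.20 and 4.96 to 4.01, 4.15 and 3.74 (log2 fold change -1.25, SE 0.09, adjusted p = 0.00106). The interval between its groups was wider than the range within either.

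Hypoxia response genes fell as well, 23 of 46 with 1 higher and a median of -0.39; 4 fell without the block, and leaving out DMSO replicate 1, rapamycin replicate 1 or rapamycin replicate 3 gave 12, 10 or 14. Hif1a, the gene of the oxygen-regulated factor itself, was not called (log2 fold change -0.25, SE 0.08, adjusted p = 0.0899). Ero1a, an oxidase of the endoplasmic reticulum, read 8.31, 7.62 and 7.25 log2 in DMSO and 6.53, 6.54 and 6.40 in rapamycin cultures (log2 fold change -1.24, SE 0.16, adjusted p = 0.00478 in limma). The rapamycin values were close together; spleen 1 started highest and fell most. P4ha2, a collagen prolyl hydroxylase, fell by 1.33, Egln3, a prolyl hydroxylase that marks HIF for destruction, by 1.16 and Bnip3, a mitophagy receptor, by 0.92, all 3 calls being lost without the block (adjusted p = 0.0814, 0.0625 and 0.0616). Kdm3a, a histone demethylase, rose by 0.70. The core hypoxia response motif ACGTG was in 17 of the 21 called members with a promoter (81.0%), in 26 of the 39 tested (66.7%), in 28.0% of all genes tested, in 34.7% of those called lower and in 29.8% of those called higher. These windows of called members with large changes stand at chr11:54100820-54100879 plus (P4ha2), chr14:45318602-45318661 minus (Ero1a) and chr12:54204065-54204124 minus (Egln3), with the motif in capitals and, in Ero1a, on the opposite strand.
P4ha2: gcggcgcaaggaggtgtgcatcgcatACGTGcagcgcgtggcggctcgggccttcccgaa
Ero1a: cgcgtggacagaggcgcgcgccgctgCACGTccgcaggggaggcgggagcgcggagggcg
Egln3: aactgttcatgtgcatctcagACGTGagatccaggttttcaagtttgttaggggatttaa
So short a motif is common by its length alone, and a match is not a site in use. The list was made of hypoxia and HIF1 targets, so its high share says nothing of these cultures.

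Sterol genes fell more often than they rose. Of 34 sterol synthesis and uptake genes 15 fell and 2 rose, with a median of -0.29; 5 fell and 1 rose without the block. Hmgcs1, which makes HMG-CoA in the cytosol, read 9.28, 8.55 and 8.56 log2 in DMSO and 8.34, 7.86 and 7.75 in rapamycin cultures (log2 fold change -0.81, SE 0.08, adjusted p = 0.00242 in limma, and 0.0865 without the block). Hsd17b7, Mvd and Pmvk, also of the cholesterol pathway, fell by 0.83, 0.74 and 0.72 (Hsd17b7 with an adjusted p of 0.0789 without the block), and the cholesterol handling genes Npc2 and Abcg1 rose by 0.65 and 0.26, the latter with a call that held in 0 of the 9 fits without 1 array and not without the block (adjusted p = 0.0995). The factor genes Srebf1 (-0.10, adjusted p = 0.428) and Srebf2 (0.02, 0.914) were not called. The sterol response element TCACNCCA was in 2 of the 12 called members with a promoter (16.7%) and in 4 of the 27 tested (14.8%). It was in 4.65% of all genes tested, 6.26% of those called lower and 3.91% of those called higher. Its letters TCACCCCA and TCACTCCA are in capitals in the windows of both called members, at chr13:119690188-119690247 plus (Hmgcs1) and chr8:64733722-64733781 minus (Msmo1, a sterol oxidase gene outside the naming rule that fell by 0.57, adjusted p = 0.143 without the block).
Hmgcs1: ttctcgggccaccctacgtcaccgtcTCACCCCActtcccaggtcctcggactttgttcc
Msmo1: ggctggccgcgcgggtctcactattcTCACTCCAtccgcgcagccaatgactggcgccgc

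Of 30 fatty acid synthesis and desaturation genes 7 fell and 1 rose, with a median of -0.07. Without the block 2 fell; the 7 became 4 without any 1 DMSO array, and 4, 3 and 2 when rapamycin replicates 1, 2 and 3 were left out in turn. Scd1, the desaturase that makes monounsaturated fatty acids, read 6.93, 6.70 and 6.25 log2 in DMSO and 5.27, 4.98 and 4.29 in rapamycin cultures (log2 fold change -1.78, SE 0.09, adjusted p = 0.000275 in limma). Scd2 fell by 0.59 (adjusted p = 0.00495, and 0.101 without the block), and Fasn, the fatty acid synthase gene, was not called (-0.14, adjusted p = 0.369). The member that rose was Acsl5, an acyl-CoA synthetase (0.33, adjusted p = 0.0161, and 0.108 without the block), with a call that held in 4 of the 9 fits without 1 array. Among single genes of fat storage, Plin2, which coats droplets, read 5.05, 4.69 and 4.57 and then 3.50, 3.64 and 3.27, Hilpda, which inhibits their breakdown, fell too (adjusted p = 0.00759), and Dgat1, the last enzyme of triglyceride synthesis, fell by 0.84. The groups of Plin2 were wider apart than the range within either. Abhd5, a co-activator of triglyceride breakdown, fell by 0.88 (adjusted p = 0.0143), with a call that held in 7 of the 9 fits without 1 array. Of 55 phospholipid and triglyceride genes 10 fell and none rose, with a median of -0.09, and 6 fell without the block; the count was 5 without DMSO replicate 1 or rapamycin replicate 1, 6 without DMSO replicate 2 or rapamycin replicate 3 and 4 without rapamycin replicate 2. Fatty acid oxidation and peroxisome genes fell by less, 12 of 48 with none higher and a median of -0.14, and their calls were fragile. Without the block 4 were called, and 1, 5, 3, 2, 3, 3, 5 and 6 without DMSO replicates 1 to 3, rapamycin replicates 1 to 3 and KU-0063794 replicates 2 and 3. Slc25a20 and Acadl, a carnitine carrier and a long-chain dehydrogenase, fell by 0.49 and 0.42, the first with a call that held in 5 of the 9, and Cpt1a, the gate of the pathway, was not called (-0.23, adjusted p = 0.0961).

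Some single genes of the membrane and cytoskeleton had small adjusted p-values. Anxa1, a membrane-binding annexin, read 7.21, 6.19 and 6.78 log2 in DMSO and 5.59, 4.57 and 5.27 in rapamycin cultures (log2 fold change -1.58, SE 0.08, adjusted p = 0.000275 in limma). The drop was 1.63 and 1.62 in spleens 1 and 2 and nearly as large in spleen 3. Gsn, the actin-severing protein gelsolin, read 5.94, 3.84 and 5.02 and then 3.75, 2.86 and 3.58, lower by all 4 of its probe sets above background (adjusted p = 0.00501, and 0.114 without the block). Lgals3, a galectin, fell from 10.37, 9.08 and 10.08 to 8.98, 7.99 and 9.14 (log2 fold change -1.14, SE 0.13, adjusted p = 0.00314, and 0.196 without the block), with groups that overlapped because spleen 2 was low in both. The beta tubulin genes Tubb2a and Tubb6 fell, Tubb2a from 4.44, 3.44 and 4.56 to 2.43, 1.96 and 2.62 and Tubb6 by 1.14 (adjusted p = 0.00106 and 0.00361). Of 48 centrosome, tubulin and centriole genes, however, 10 rose and 3 fell, with a median of 0.17. Leaving out 1 array gave between 4 and 10 higher and between 2 and 3 lower. Stmn1, which destabilises microtubules and is high in dividing cells, rose from 8.33, 8.69 and 8.60 to 9.54, 9.53 and 9.68 (log2 fold change 1.04, SE 0.09, adjusted p = 0.00178). Its 3 rapamycin values were closer together than its DMSO values. Tmem40, a membrane protein gene of little known role, fell from 4.35, 4.85 and 4.63 to 2.57, 3.01 and 3.01 and had the smallest adjusted p of all genes, 0.000177.

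Cell division genes rose together. Of 122 tested mitosis and kinetochore genes 81 rose and 1 fell, with a median of 0.50, or 0.66, 0.39 and 0.39 in spleens 1, 2 and 3; 113 had a fold change above 0, 67 rose without the block and 46 without rapamycin replicate 1. Ncapd2, a subunit of condensin, which compacts chromosomes, read 4.34, 4.63 and 4.82 log2 in DMSO and 5.45, 5.36 and 5.78 in rapamycin cultures (log2 fold change 0.93, SE 0.09, adjusted p = 0.0019 in limma). Aspm, a spindle pole protein, rose from 3.19, 3.69 and 3.61 to 4.73, 4.54 and 4.49, and Cenpf, of the outer kinetochore, from 3.95, 4.75 and 4.21 to 5.48, 5.57 and 5.18. In both genes every rapamycin value was above every DMSO value. Pimreg rose by 1.03 and the kinesin Kif20a by 0.96, and Zwint, a kinetochore protein, was the member that fell (-0.43, adjusted p = 0.0401, and 0.0774 without the block), with a call that held in 2 of the 9 fits without 1 array.

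Promoters of the called mitosis genes often held the cell cycle genes homology region, TTTGAA on either strand, which the MuvB complexes bind: 38 of 67 with a promoter (56.7%), against 48.5% of the tested members, 14.1% of all genes tested, 22.3% of the genes called higher and 10.7% of those called lower. Counting only the 250 bases before the start, the shares were 31.3%, 28.2%, 12.7%, 16.8% and 10.3%. The CCAAT box was in 67.2% of the called members, 63.1% of the tested members and 42.2% of all genes tested. This list and its motifs were also chosen with earlier results known, so the list's high shares say nothing of these cultures. Shown are windows of called members with large changes that hold the region before the start, with the region in capitals. Kif11, a spindle kinesin that rose by 0.82, and Cdca5, which protects sister chromatid cohesion and rose by 0.81, lie outside the naming rule. The windows stand at chr6:125191676-125191735 minus (Ncapd2), chr19:37376322-37376381 plus (Kif11) and chr19:6085037-6085096 plus (Cdca5), the last with a pair of matches.
Ncapd2: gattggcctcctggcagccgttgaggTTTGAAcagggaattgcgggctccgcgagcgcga
Kif11: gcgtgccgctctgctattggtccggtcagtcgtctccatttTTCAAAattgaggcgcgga
Cdca5: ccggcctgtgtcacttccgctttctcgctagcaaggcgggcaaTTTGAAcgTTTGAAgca

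DNA replication genes rose in 28 of 65 cases and fell in 1, with a median of 0.33; 17 rose without the block, and the count was 18 when DMSO replicate 1 was left out, 13 for rapamycin replicate 1 and 18 for rapamycin replicate 3. The replicative polymerase genes Pold1 and Pole rose from 5.18, 5.57 and 5.48 to 6.14, 6.13 and 6.40 log2 and from 4.22, 4.47 and 4.60 to 5.13, 5.22 and 5.20 (log2 fold changes 0.82 and 0.75, adjusted p = 0.00482 and 0.0026 in limma). Both were higher on every rapamycin array than on any DMSO array. Ticrr, which fires origins, rose by 0.79, and Pold4, a small polymerase subunit, fell by 0.46 (adjusted p = 0.0202, and 0.397 without the block) with a call that held in 5 of the 9. E2F sites were rare in promoters and more frequent here: TTTGGCGC was in 5 of 22 called members with a promoter (22.7%), 14.8% of tested members, 1.05% of all genes tested, 2.41% of those called higher and 0.677% of those called lower. The form TTTCGCGC was in 31.8%, 16.7%, 0.753%, 2.11% and 0.508% of the same sets. The list and the motifs were chosen with earlier results of these data known, so the list's high share says nothing of these cultures. Windows with these sites in capitals stand at chrX:93632260-93632319 minus (Pola1, polymerase alpha), chr8:75109334-75109393 plus (Mcm5, of the replicative helicase) and chr17:56304102-56304161 plus (Uhrf1, which passes DNA methylation to daughter strands). Pola1 and Mcm5 are outside the naming rule and rose by 0.57 (adjusted p = 0.0731 without the block) and 0.56, and Uhrf1 rose by 0.66. In the 250 bases before the start the first form was in 13.6% of the called members and 0.876% of all genes tested, and the second in 18.2% and 0.622%.
Pola1: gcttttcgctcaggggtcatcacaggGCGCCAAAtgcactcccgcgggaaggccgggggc
Mcm5: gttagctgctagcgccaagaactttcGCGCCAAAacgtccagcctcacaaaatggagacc
Uhrf1: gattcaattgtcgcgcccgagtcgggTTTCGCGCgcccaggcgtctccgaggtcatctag
The first 2 sites read on the opposite strand to the gene and the last on its own strand; capitals in Mcm5 mark TTTGGCGC alone, and the second form overlaps it on the gene's own strand.

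**Figure D4:**
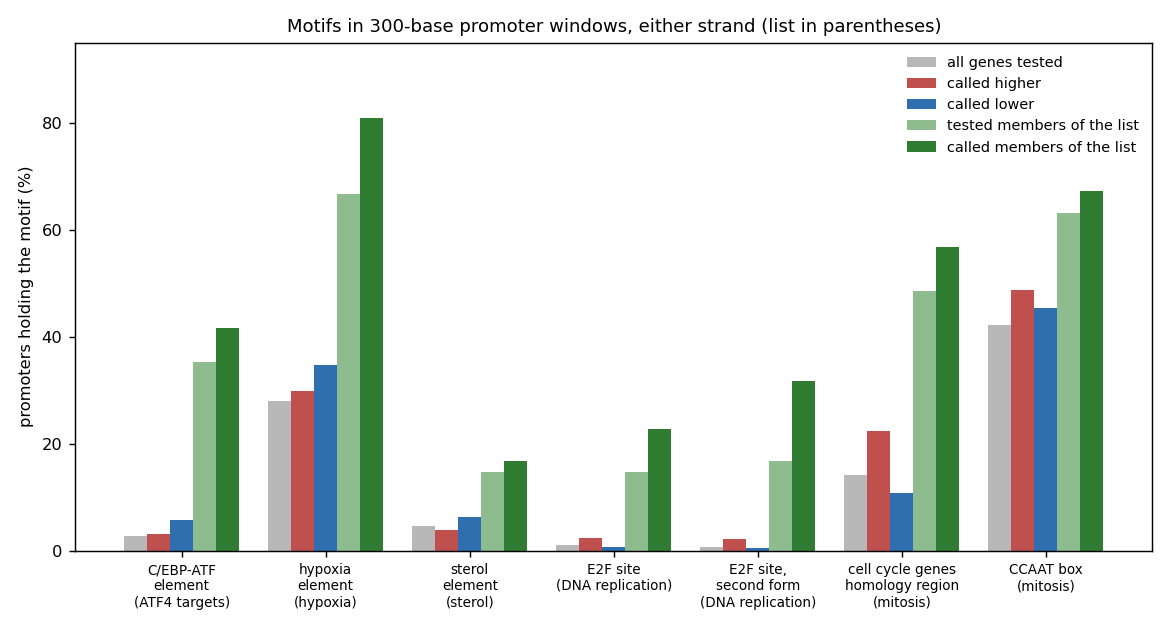
Share of promoters (percent, y axis) that hold each motif on either strand, for all genes tested with a promoter (grey), genes called higher (red), genes called lower (blue) and the tested and called members of the list in parentheses (light and dark green). The cell cycle genes homology region is in 22.3% of genes called higher and 10.7% of those called lower, and the C/EBP-ATF element in 3.16% and 5.75%.

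Regulators of the cycle were mixed. Of 63 cyclin, kinase, inhibitor and E2F genes 23 rose and 5 fell, with a median of 0.16, and leaving out DMSO replicate 1, rapamycin replicate 1 or rapamycin replicate 3 turned the 23 into 13, 12 or 15; the 5 became 3 without the block and without rapamycin replicate 2 or 3. E2f7, a repressor made late in S phase, rose from 2.77, 2.60 and 3.18 to 3.99, 3.91 and 3.99 log2 (log2 fold change 1.11, SE 0.11, adjusted p = 0.00209 in limma). Ccnf, a cyclin of G2, rose from 2.12, 1.87 and 2.08 to 3.02, 2.73 and 3.01, starting below the background level, and Foxm1, the activator of mitotic genes, by 0.79. Cyclins of entry into the cycle differed from these: Ccnd2 fell by 0.47 in all 6 of its probe sets above background (adjusted p = 0.00482), and Ccnd3 was not called (0.07, adjusted p = 0.571). The inhibitor gene Cdkn1a, which encodes p21, fell from 7.77, 7.75 and 7.90 to 6.78, 7.11 and 7.22 (log2 fold change -0.77, adjusted p = 0.00301). Cdkn1b, which encodes p27 and was below background, rose by 0.33 (adjusted p = 0.0396, and 0.427 without the block), and Mki67, the proliferation marker, rose by 0.47 (adjusted p = 0.0284, and 0.0661 without the block). The calls of Cdkn1b and Mki67 held in 1 and 4 of the 9 fits without 1 array.

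Genes that repair and package DNA also rose. Of 85 repair genes 20 rose and 1 fell, with a median of 0.17; 12 rose without the block, and 8, 12, 13, 7, 10 and 10 without DMSO replicates 1 to 3 and rapamycin replicates 1 to 3. Brca1 and Atm, of the double-strand break response, rose by 0.83 and 0.72, and the glycosylase Neil3 by 0.85, the call of Brca1 holding in 8 of the 9 fits without 1 array. Of 37 histone and chromatin assembly genes 15 rose and 2 fell, with a median of 0.24; without the block 1 fell, and the 15 became 8 without the block, 6 and 7 without DMSO replicates 1 and 3, and 5, 5 and 7 without rapamycin replicates 1 to 3. H2az2, a variant of histone H2A, read 6.17, 6.67 and 6.41 log2 in DMSO and 7.61, 7.62 and 7.73 in rapamycin cultures (log2 fold change 1.24, SE 0.10, adjusted p = 0.00172 in limma). Its rapamycin values were nearly equal. Hmgb2 and Hmgb3, proteins that bend DNA, rose by 0.67 and 0.80. The linker histone gene H1f2 went the other way, from 2.91, 3.32 and 2.99 to 1.91, 2.00 and 1.91 (log2 fold change -1.13, adjusted p = 0.00124), as did Lmna, which encodes lamin A, from 4.02, 2.94 and 3.35 to 2.79, 1.42 and 2.23 (log2 fold change -1.29, adjusted p = 0.0013, and 0.131 without the block). Lmna fell by 1.24, 1.52 and 1.12 in spleens 1, 2 and 3. Of 76 splicing genes 10 rose and none fell (median 0.12), but 2 were called without the block, 1, 2 and 2 without DMSO replicates 1 to 3, 6 without KU-0063794 replicate 3 and 0 without any 1 rapamycin array. The 10 were 13.2% of the list, near the 10.9% called higher of the genes with a group mean above background.

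**Figure D5:**
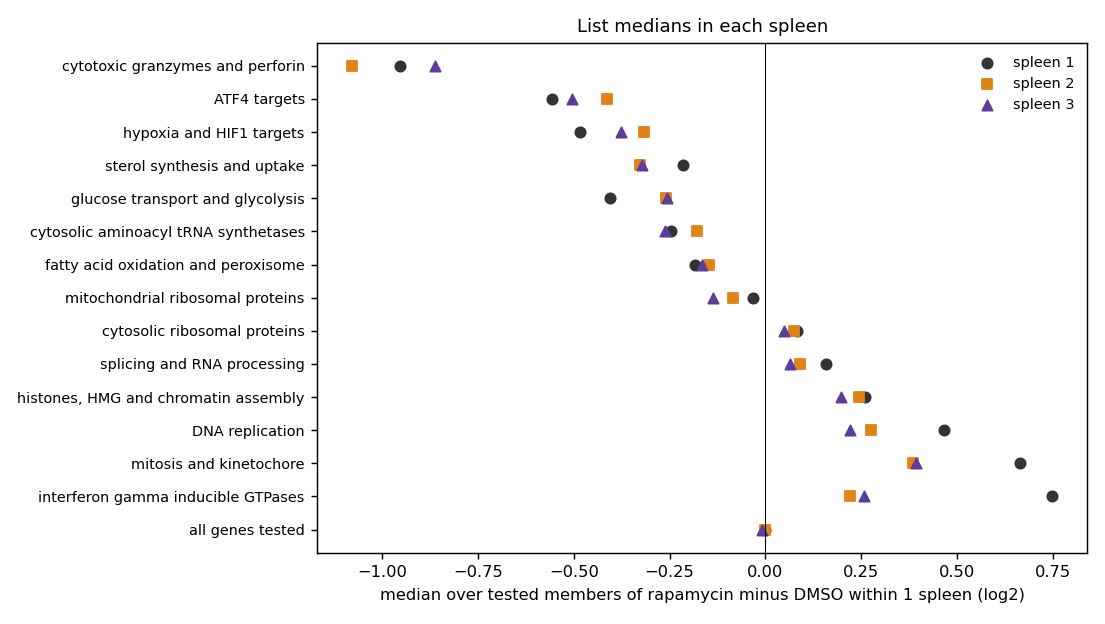
Median over the tested members of 15 gene sets of rapamycin minus DMSO within each spleen (log2, x axis); circles, squares and triangles are spleens 1, 2 and 3. The 3 spleens give each median drawn the same sign, apart from all genes tested, which lies at or near 0, and spleen 1 gives the largest medians for the interferon-inducible GTPases, mitosis and DNA replication genes.

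Although Ifng fell, GTPases and related genes that interferon gamma induces tended to be higher. Of 15 GTPases and related genes 6 rose, none fell, all 15 had a fold change above 0 and the median was 0.41, or 0.75, 0.22 and 0.26 in spleens 1, 2 and 3; 1 rose without the block, 3 when DMSO replicate 1 was left out and 2 when rapamycin replicate 1 was. Gbp2, a guanylate-binding protein of cell-autonomous defence, read 5.76, 5.84 and 6.37 log2 in DMSO and 7.50, 7.13 and 7.61 in rapamycin cultures (log2 fold change 1.42, SE 0.13, adjusted p = 0.00189 in limma). Iigp1, an immunity-related GTPase, rose from 3.22, 3.56 and 4.71 to 5.43, 4.52 and 5.63 (adjusted p = 0.0118, and 0.0977 without the block), by 2.21 in spleen 1 and by 0.96 and 0.91 in spleens 2 and 3, and its call held in 8 of the 9 fits without 1 array. Irgm2 and Gbp3 rose by 0.77 and 0.59 (adjusted p = 0.384 and 0.442 without the block), Irgm2 with a call that held in 5 of the 9. Type I interferon stimulated genes did not move one way, with 5 higher and 4 lower of 49, 2 and 1 without the block, and a median of 0.09. The 5 became 2 without DMSO replicate 1 or 2 or rapamycin replicate 1 or 2. The 4 became 1 without DMSO replicate 1 or 2, rapamycin replicate 1 or KU-0063794 replicate 3, 2 without KU-0063794 replicate 1 and 0 without DMSO replicate 3 or rapamycin replicate 2 or 3. Of 21 MHC class I presentation genes 5 rose and 1 fell, with a median of 0.13; 2 rose without the block, 2 without DMSO replicate 1 or 2 or rapamycin replicate 2 or 3, 3 without DMSO replicate 3 or KU-0063794 replicate 1 or 3 and 1 without rapamycin replicate 1. Erap1, which trims peptides, and Tapbpl, which edits them, rose by 0.58 and 0.53. H2-Q10 fell by 1.40 (adjusted p = 0.0207, and 0.105 without the block); it is a gene with close relatives in the family whose probes were not checked for cross-hybridisation. The calls of Tapbpl and H2-Q10 held in 7 and 5 of the 9 fits without 1 array.

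Of all genes called, Igfbp4, Klhl24 and Ccn3 rose most. Igfbp4, which binds insulin-like growth factors and is high in naive T cells, read 3.84, 4.78 and 5.03 log2 in DMSO and 6.09, 6.21 and 6.40 in rapamycin cultures (log2 fold change 1.69, SE 0.16, adjusted p = 0.00196 in limma), higher by all 5 of its probe sets above background. Spleen 1 started lowest and gained most, 2.25 against 1.44 and 1.37. Klhl24, a ubiquitin ligase adaptor and FOXO target, rose from 1.23, 1.44 and 1.52, below background, to 3.13, 3.30 and 2.56, and Ccn3, a matricellular protein, from 2.28, 1.98 and 2.54 to 4.34, 3.20 and 3.74. Kdsr, an enzyme of ceramide synthesis, rose from 2.41, 3.60 and 2.82 to 3.94, 4.52 and 4.26 (log2 fold change 1.29, adjusted p = 0.00284). None of these 4 genes had overlapping groups. FOXO targets as a list gave 5 higher and 11 lower of 42 and a median of -0.12, the lower members including Ddit4, Tob1 (-0.98), Cdkn1a and the sestrins; 2 and 3 were called without the block, the 11 becoming 7 without DMSO replicate 1 or 3 or rapamycin replicate 1 or 2 and 6 without rapamycin replicate 3.

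Neighbouring genes sometimes moved together. Among 13256 tested genes placed in RefSeq order, 12 runs of at least 3 adjacent tested genes were called in one direction, 8 higher and 4 lower; how many runs chance gives was not tested. The longest pair of runs was the Gimap cluster, GTPases of lymphocyte survival, whose genes are outside the naming rule and were chosen after their values were seen. Gimap8, Gimap9, Gimap4, Gimap6 and Gimap7 rose by 0.37, 0.36, 0.35, 0.75 and 0.39, and Gimap5, Gimap3, Tmem176b and Tmem176a by 0.36, 0.43, 0.72 and 0.92. Gimap6 read 5.65, 5.58 and 6.02 log2 in DMSO and 6.50, 6.28 and 6.71 in rapamycin cultures (adjusted p = 0.00266 in limma), and it and Gimap4 were the members called also without the block. The other runs included granzymes E, D, G and F and the serpins Serpinb1a, Serpinb6b and Serpinb9, both described above. Probe sets of related genes in one cluster may share sequence, and cross-hybridisation was not tested.

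Several large sets that mTORC1 is known to act on gave few calls in RNA. Of 109 ribosome biogenesis genes 2 rose and 2 fell, with a median of -0.01, a share below the 6.24% and 5.52% of all genes. Of 45 cytosolic ribosomal protein genes 2 rose and none fell (median 0.07), of 45 autophagy genes 1 rose and 2 fell (0.03), of 47 proteasome genes none rose and 2 fell (-0.07) and of 88 respiratory chain genes 2 rose and 4 fell (-0.08). Leaving out 1 array gave between 0 and 3 for each of these counts above 1. Without the block the ribosome biogenesis counts were 1 higher and 0 lower, 0 autophagy and 1 proteasome gene were called lower, and 1 respiratory chain gene was called higher. Of 77 mitochondrial ribosomal protein genes, all above background, 8 fell and none rose, with a median of -0.07. That is 10.4% called lower, near the 9.07% of the 6756 genes with a group mean above background; 3 were called without the block or without DMSO replicate 1 or 3 or any 1 rapamycin array, 4 without DMSO replicate 2 or KU-0063794 replicate 1 and 5 without KU-0063794 replicate 2 or 3. Lysosome genes moved in both directions, 9 higher and 6 lower of 60, and 3 and 3 without the block. The 9 became 3 and 4 without DMSO replicates 1 and 3 and 2, 5 and 2 without rapamycin replicates 1 to 3, and the 6 became 3 without DMSO replicate 1 or rapamycin replicate 1 or 2 and 2 without DMSO replicate 3 or rapamycin replicate 3. Ctss, a cathepsin, rose by 0.84 (adjusted p = 0.00482, and 0.358 without the block) and Ctsd, another, fell from 7.70, 6.99 and 7.19 to 6.81, 6.44 and 6.36 log2 (adjusted p = 0.00735). Tfeb, the lysosomal regulator, was below background and not called (-0.02, adjusted p = 0.904).

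Probe sets gave a further look at the calls. Of 456 called genes with at least 2 probe sets above background, all probe sets had the same sign in 416 (91.2%), against 1155 of 1745 genes not called (66.2%). The tally includes the probe set behind the call, read on the same arrays, and differences near 0 change sign easily. The higher share among called genes is therefore no separate support. The share called also depended on signal, from 0.492% higher and 1.03% lower among 4270 genes with a mean up to 1 log2 to 12.1% and 10.6% among 2601 genes between 4 and 6 log2. KU-0063794, compared with rapamycin without use of the DMSO values in the difference, gave no gene past the threshold in limma; 1329 genes had an unadjusted p under 0.05, and the smallest adjusted p was 0.0587. With a variance trend in the model 75 genes passed, so a difference between the inhibitors is not shown to be absent.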

How the data were processed

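Total RNA of each culture was hybridised to 1 Affymetrix mouse expression array. The authors deposited 1 log2 signal for each probe set, made with Affymetrix Expression Console 1.3.1 per the submitters' processing notes; how probes were summarised and arrays normalized is not given in the sources used here. Of 45101 probe sets, 64 were controls, 34945 had 1 gene symbol in the platform annotation, 932 had several and 9160 were not listed there. The probe set with the highest mean over the 9 arrays stood for each of 18193 genes, and the 13278 genes above the 40th percentile (0.31 log2) were tested. Groups were compared with limma 3.58.1 run in R 4.3.3 (lmFit and eBayes, two-sided, group and spleen as fixed effects over all 9 arrays, Benjamini-Hochberg adjustment). The number of arrays limits the precision. Replicate numbers pair the arrays because a number marks 1 spleen: deviations from group means correlated with r of 0.345 to 0.533 in the 9 pairs of arrays with the same number and -0.414 to -0.0791 in the 18 others. Deviations from a group's own mean cancel out within the group, so positive values in the first set push the others to negative values. The negative values are therefore no separate support for the pairing. The background level was set by 36 tissue-restricted genes (median 0.43 log2), of which Afp was itself expressed and fell. Gene lists, some of which overlap, the motifs and the members were chosen with earlier results of these data known. A list's high share of the motif paired with it therefore says nothing of these cultures. The text names genes called with at least 2-fold change, the same sign in all spleens and a mean above background in the higher group, the 5 largest changes of a list in each direction, the 10 smallest p-values in each direction and a fixed panel of T cell genes, unless it says otherwise. Results of some gene lists are not reported here. The fit was tested on simulated data. Alternatives covered the block, the arrays used, normalization, filters, probe set choice, variance models, every array and spleen left out, and a shorter promoter window. Promoters of 10619 genes tested came from RefSeq by gene identifier. No window was shown for promoters on chr18.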

Additional observations from a re-analysis of the deposited data

How the results depend on the processing

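The count of 1561 genes called was 590 without the replicate block, 745 with the DMSO and rapamycin arrays alone, and between 592 and 1335 without 1 array (6, 411 and 18 without spleens 1, 2 and 3); under the other alternatives run it lay between 1245 and 2262. The replicate numbers pair the arrays, so a fit without the block counts differences between spleens as error. The count of 93 at 2-fold or more was 54 with the mean of all probe sets of a gene and between 61 and 118 without 1 array (6, 103 and 18 without spleens 1, 2 and 3). For KU-0063794 minus rapamycin, 0 in the block fit, the count was 4 after quantile normalization, 3 after median centring, 5 with the stricter filter, 75 with a variance trend, 3 with array weights and 0 to 1 without 1 array or spleen. None of the 161 called genes named changed sign in the alternatives that gave them a value (151 of them with the stricter filter and 160 with the mean of probe sets). The fit of single probe sets was not compared gene by gene. Every gene called had the same sign in 3 of 3 spleens, so leaving out a spleen or the block could not change a sign. The lack of changed signs is therefore no separate support for the calls. Without the block 88 of the 161 stayed called. Limits are the 3 spleens, 1 culture each per treatment, one time and one dose.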
